A study of Equus caballus with 33 samples.

Results

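Cartilage explants kept in culture without any cytokine are the control arm of this study, and the comparison described here is between the end of that culture and its start. It used 9 of the 33 arrays of the series. The long-culture group held the 6 arrays of unstimulated cartilage harvested at days 21 and 27 (3 at each day), and the group at day 0 held 3 arrays of cartilage. Members were chosen by label alone, without regard to any measured value. The days 21 and 27 arrays of the same replicate number were averaged, and each average was set against the day 0 array of its number, which gave 3 paired differences.

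The study measured gene expression with an Affymetrix array in articular cartilage of the distal end of the third metacarpal bone, taken post mortem from 3 horses without joint disease. Per the labels, explants lay in medium for 48 h and were then cultured in medium alone or with equine interleukin-1β (IL-1β), an inflammatory cytokine, at 10 ng/mL. All groups used here carried the same handling at harvest: 2 explants were digested with trypsin and then collagenase, the cells were lysed in TRIzol, and 2 ng of RNA was amplified. The labels do not say whether the day 0 explants were harvested before or after the 48 h in medium. Other groups used for comparison were stimulated explants of days 21 and 27 (6 arrays) and unstimulated explants of day 3 (3 arrays). Each replicate number was taken as 1 horse, which the labels imply through a shared experiment number but do not state. A horse and a batch that share that number cannot be told apart. An explant in a dish has no joint loading, synovial fluid or subchondral bone, which limits it as a model of cartilage in the joint.

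Articular cartilage has no blood vessels or nerves, and its resident cell, the chondrocyte, keeps up a matrix of type II collagen fibrils and the proteoglycan aggrecan. Bone morphogenetic proteins (BMPs) and Wnts drive chondrocytes towards hypertrophy and mineralisation, and secreted antagonists of both pathways are a known feature of the permanent articular layer. Cutting an explant injures the cells at its edge, and culture takes the tissue away from load and joint fluid.

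The 9 arrays had medians of 5.16 to 5.38 on the log2 scale, 0 pairs of arrays held identical values, and correlations between arrays of a group lay between 0.960 and 0.983. On the first principal component of the 18 unstimulated arrays, which held 19.1% of the variance, day 0 arrays scored between -41.9 and -30.5. Long-culture arrays scored between -7.56 and 23.7, except that of day 27, number 3, which scored 57.8 and also stood apart on the second component at 36.7. The calls named below that were lost with number 3 represented by day 21 alone are listed with the gene lists. Below, a difference is long culture minus day 0 in log2 units, where 1 is a 2-fold change. Its error is the moderated standard error of limma over 3 numbers, and a gene was called at an adjusted p under 0.05 over all 25923 probe sets. In bulk RNA, fewer cells of a type and less RNA per cell cannot be told apart.

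A small share of the probe sets was called between long culture and day 0. At an unadjusted p under 0.05 in limma the count was 4828, and a probe set without a call is not shown to be unchanged. Of 25923 probe sets, 588 were called (2.27%), 283 higher (1.09%) and 305 lower (1.18%) in long culture. Among 16661 named genes, 500 were called (3.00%), with 236 higher (1.42%) and 264 lower (1.58%), and 85 further calls fell on probe sets without a single gene symbol. Of the 588 calls, 441 passed 2-fold and 78 passed 4-fold. With 3 numbers small differences seldom reach the threshold, so these counts do not give the size of changes in general. The median difference over all probe sets was 0.046, and 0.017 over named genes. All 6 long-culture arrays lay above all 3 day 0 arrays for 939 named genes (5.64%) and below them for 1518 (9.11%). The count of calls moved with the number left out: it was 57 without number 3, 274 without number 2 and 490 without number 1. Each of these fits left 1 residual degree of freedom, and why their counts differ was not tested. With number 3 represented by day 21 the count was 466.

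**Figure D1:**
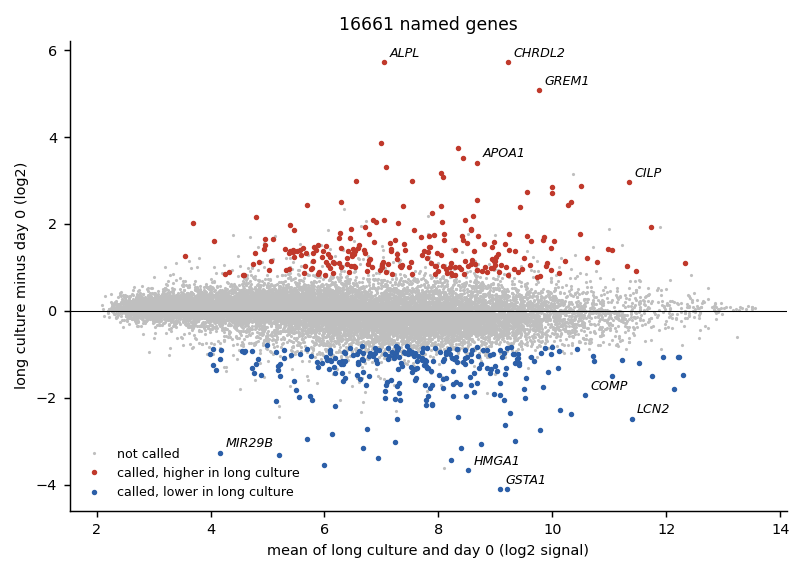
Difference between long culture and day 0 (vertical axis, log2) against the mean of both groups (horizontal axis, log2 signal) for 16661 named genes, with the 236 genes called higher in red and the 264 called lower in blue. The 3 highest points are ALPL, CHRDL2 and GREM1, between 5.08 and 5.72, and called genes lie over most of the signal range.

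The genes that rose most were 2 secreted BMP antagonists and an enzyme of mineralisation. CHRDL2 (chordin-like 2, which binds BMPs outside the cell) had 10.37 to 12.89 (median 12.55) log2 units over the 6 long-culture arrays, against 5.59, 6.78 and 6.70 at day 0. Its difference was 5.72 ± 0.17 (adjusted p = 0.000411, limma, n = 3). GREM1 (gremlin 1, another BMP antagonist, abundant in articular cartilage) had 11.84 to 12.56 (median 12.34) in long culture, against 7.46, 6.48 and 7.74 at day 0. In both genes every long-culture array lay far above every day 0 array. GREM1 differed by 5.08 ± 0.28 (adjusted p = 0.00365, limma). ALPL, the tissue-nonspecific alkaline phosphatase that frees phosphate for mineral, had 8.53 to 10.79 (median 10.01) in long culture, against 4.02, 4.05 and 4.48 at day 0. Averaged over both days, ALPL rose by nearly the same amount in each number (5.86, 5.61 and 5.70, adjusted p = 0.000223, limma). The days themselves were less even, with 10.79 at day 21 and 8.53 at day 27 in number 2. All 3 calls held with each number left out in turn, with adjusted p without number 3 of 0.00923 for CHRDL2, 0.0197 for GREM1 and 0.00741 for ALPL.

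Matrix and secreted proteins made up much of the rest of the 14 largest rises. CILP, cartilage intermediate layer protein, had 12.59 to 13.11 (median 12.78) in long culture, against 10.42, 8.71 and 10.46 at day 0, so that a day 0 array of number 2 lay well under the other 2. The difference of CILP was 2.96 ± 0.30 (adjusted p = 0.0135, limma, and 0.0545 without number 3). CYTL1, a secreted factor made by chondrocytes, had 11.66 to 12.33 (median 11.87) in long culture, against 8.67, 8.85 and 9.68 at day 0 (difference 2.88 ± 0.27, adjusted p = 0.0118, limma). CNMD (chondromodulin, an inhibitor of vessel growth made by cartilage) had 9.28 to 9.93 (median 9.64) in long culture, against 6.78, 6.22 and 6.38 at day 0. Neither CYTL1 nor CNMD overlapped between the groups, and CNMD differed by 3.17 ± 0.15 (adjusted p = 0.00229, limma). APOA1, a carrier of cholesterol in blood lipoproteins, had 9.46 to 11.64 (median 10.29) in long culture, against 7.07, 6.57 and 7.28 at day 0 (difference 3.41 ± 0.28, adjusted p = 0.00965, limma). ITM2A, a membrane protein known from early cartilage differentiation in the mouse, ranged widely in long culture, from 6.10 to 9.18, but stayed above 5.32, 5.69 and 4.17 at day 0 (difference 2.99 ± 0.22).

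The other rises past the same rank were in SIDT1, a membrane protein that carries RNA, at 3.86 ± 0.19, PEBP4, a lipid-binding protein, at 3.76 ± 0.28, and the secreted protein CRISPLD1 at 3.52 ± 0.15. TMEM255A rose by 3.32 ± 0.35, IGSF10 by 2.99 ± 0.38 and PPP1R1B, an inhibitor of protein phosphatase 1, by 3.08 ± 0.41. PPP1R1B was the least even of the 14 between numbers, with differences of 1.77, 3.42 and 4.06. Its call was lost without number 2 (adjusted p = 0.0529, limma) or number 3 (adjusted p = 0.0916), as was that of IGSF10 without number 3 (adjusted p = 0.0545). The adjusted p of these 6 genes in limma lay between 0.00192 and 0.0269.

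**Figure D2:**
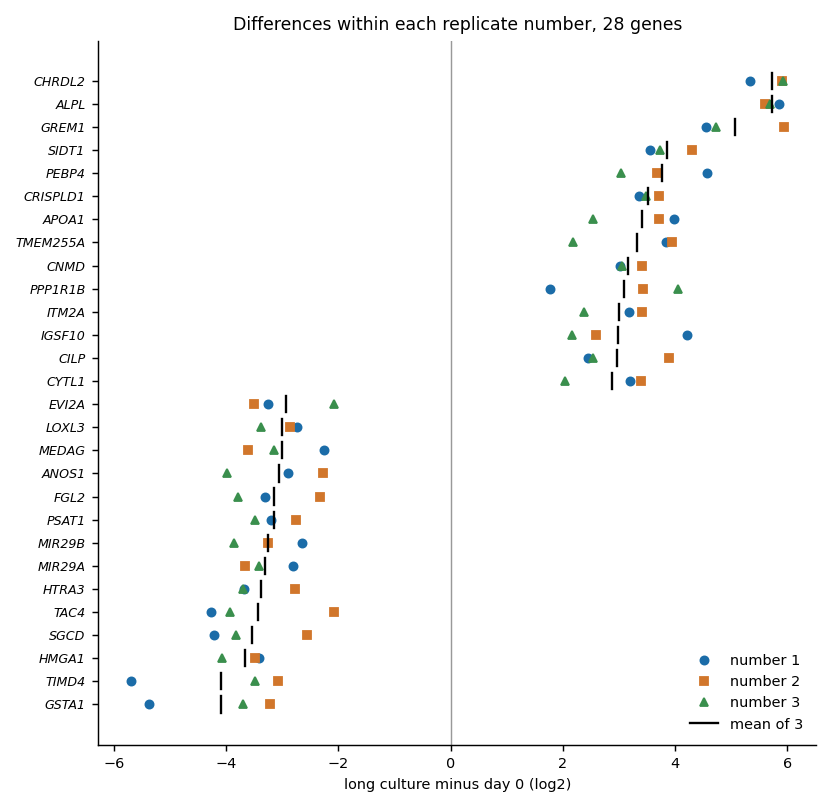
Difference between long culture and day 0 (horizontal axis, log2) within each of the 3 replicate numbers (points) and their mean (black line) for the 14 highest and 14 lowest called genes. The points of every gene lie on 1 side of 0, and the spread between numbers is widest for PPP1R1B among the genes that rose and for TIMD4 among those that fell.

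The largest falls were those of GSTA1, TIMD4, HMGA1 and SGCD, of which TIMD4 and SGCD are given further below. GSTA1, a glutathione transferase, had 5.37 to 8.93 (median 7.04) in long culture, against 11.09, 10.25 and 12.07 at day 0 (difference -4.10 ± 0.40, adjusted p = 0.0118, limma). HMGA1, a chromatin protein of proliferating and immature cells, had 6.03 to 7.23 (median 6.69) in long culture, against 3 nearly equal values of 10.25, 10.42 and 10.39 at day 0. Its long-culture values were also close together, so that the difference of -3.66 ± 0.18 was many times its error (adjusted p = 0.00229, limma). PSAT1, an enzyme of serine synthesis, had 4.83 to 5.33 (median 5.07) in long culture, against 8.23, 7.73 and 8.78 at day 0 (difference -3.15 ± 0.18, adjusted p = 0.00373, limma). LOXL3, a lysyl oxidase that cross-links collagen, had 7.42 to 8.20 (median 7.88) in long culture, against 10.48, 10.95 and 11.10 at day 0 (difference -3.00 ± 0.17, adjusted p = 0.00373, limma). HTRA3, a secreted serine protease, had 4.95 to 5.59 (median 5.24) in long culture, against 9.09, 8.0 and 8.81 at day 0. For none of these genes did the groups overlap, and HTRA3 differed by -3.39 ± 0.22 (adjusted p = 0.00511, limma). The calls of HMGA1, PSAT1, LOXL3 and HTRA3 held with each number left out in turn, and GSTA1 had an adjusted p of 0.0545 without number 3.

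Probe sets of 2 microRNA genes of the same family fell together. MIR29A had 3.00 to 4.29 (median 3.35) in long culture, against 6.34, 7.02 and 7.20 at day 0, and MIR29B had 2.26 to 2.88 (median 2.48) in long culture, against 5.13, 5.52 and 6.73 at day 0. MicroRNAs of the miR-29 family are known to repress many collagen mRNAs. Both probe sets measured transcripts of the gene and not a mature arm, and the long-culture signals lay near the lowest on the arrays (lowest value 1.5), where differences can be understated. The differences were -3.30 ± 0.20 for MIR29A and -3.26 ± 0.24 for MIR29B (adjusted p = 0.00393 and 0.00707, limma), and both calls held with each number left out in turn.

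The other 7 of the 14 largest falls included TIMD4, a receptor for dying cells known from macrophages, at -4.09 ± 0.48, SGCD, a sarcoglycan of the cell membrane, at -3.53 ± 0.31, and TAC4, a tachykinin peptide, at -3.43 ± 0.41. FGL2 fell by 3.14, the matrix protein ANOS1 by 3.05, MEDAG by 3.00 and EVI2A by 2.94 on the log2 scale. TIMD4 had 4.36 to 9.68 (median 7.21) in long culture, the widest range of these genes, against 11.59, 9.80 and 12.33 at day 0, and its groups still did not overlap. PTPRC, the pan-leukocyte marker, had means of 3.58 in long culture and 3.44 at day 0, and the macrophage marker CD163 had 2.94 and 2.81. The macrophage markers CD68 and FCER1G had means of 8.40 and 4.65 in long culture, against 8.40 and 5.31 at day 0. FCER1G differed by -0.67 without a call (adjusted p = 0.156, limma). Of 12 macrophage markers, 10 had a positive and 2 a negative difference. Without number 3 the calls of TIMD4, SGCD, TAC4 and MEDAG were lost (adjusted p = 0.0545 to 0.0985, limma). Of the 28 genes with the largest changes, 20 kept their call without number 3 and 28 with that number represented by day 21.

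By the median over these genes, most of the change lay between day 3 and day 15. As a share of the final difference, the means of the 14 risers had covered a median of 19.0% at day 3, 54.2% at day 9 and 91.0% at day 15. The 14 fallers had covered 37.5% at day 3, 76.8% at day 9 and 92.0% at day 15. These shares describe genes that were chosen for their final difference. CHRDL2 had 5.68, 6.85 and 7.24 at day 3, close to its day 0 values in numbers 1 and 2, and 8.78, 8.22 and 11.82 at day 9. APOA1 did not follow this order: its mean had covered 84.7% of the final difference at day 3, 38.7% at day 9 and 88.3% at day 15. By day 3, 2 of the 14 risers (CILP and APOA1) and 6 of the 14 fallers (TIMD4, HMGA1, SGCD, MIR29A, MIR29B and PSAT1) had passed 50% of the final difference. MIR29B had the highest share of the fallers, with 84.4% covered at day 3, whereas HTRA3 and EVI2A stood at -4.75% and -4.99% at day 3, a mean slightly above that of day 0. ALPL rose late in numbers 1 and 2, which had 4.82 and 5.02 at day 9 and 8.85 and 9.99 at day 15, while number 3 had 7.45 already at day 3.

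**Figure D3:**
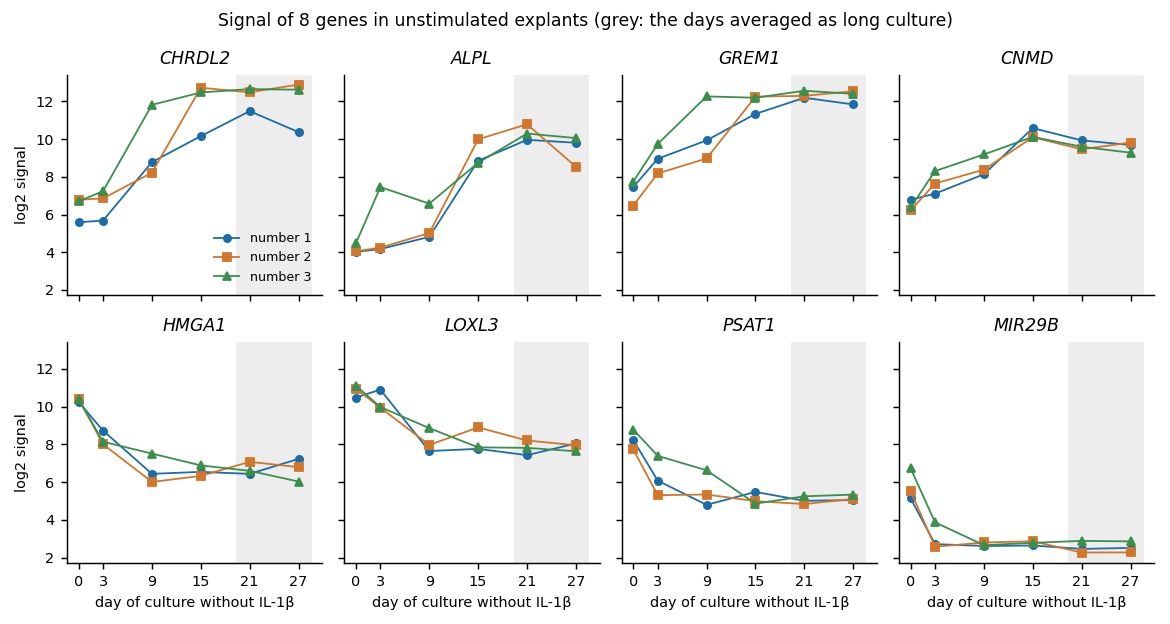
Log2 signal of 4 genes that rose and 4 that fell (vertical axis) over the day of culture without IL-1β (horizontal axis), with 1 line for each replicate number and the days averaged as long culture shaded. The lines of CHRDL2 and GREM1 climb between days 3 and 15, those of ALPL climb between days 9 and 15 and spread again by day 27, and those of MIR29B drop to near their late level by days 3 to 9.

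Set against day 3 in place of day 0, long culture differed in 24 of 25923 probe sets (0.0926%), 12 higher and 12 lower. This comparison shares the long-culture arrays with the one above, so that the values stand side by side and are not independent. CHRDL2 differed by 5.49 ± 0.17, PEBP4 by 4.14 ± 0.29, SIDT1 by 3.49 ± 0.20, GREM1 by 3.34 ± 0.29 and CYTL1 by 3.28 ± 0.23, the 5 largest rises. The largest fall was that of COL10A1, the collagen of hypertrophic chondrocytes, which had 5.11 to 6.19 (median 5.40) in long culture, against 10.32, 8.96 and 10.53 at day 3. At day 0 COL10A1 had 10.40, 5.77 and 7.23, so that number 1 was high and number 2 was within the long-culture range. COL10A1 was therefore called against day 3 (-4.45 ± 0.33, adjusted p = 0.0178, limma) and not against day 0 (-2.32 ± 0.87, adjusted p = 0.233). The aggrecanase ADAMTS5 differed by -2.93 ± 0.29 against day 3 (adjusted p = 0.0399, limma) and by -1.95 ± 0.32 against day 0. The count was 118 without number 3, 9 without number 2 and 6 without number 1.

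Between the days that were averaged, 0 of 25923 probe sets were called (0%) for day 27 minus day 21 in limma. An unadjusted p under 0.05 in limma, which marks about 1 in 20 probe sets where nothing differs, was reached by 1084. With the spread pooled over all 33 arrays, 1 was called. The lowest difference with the same sign in all numbers was that of the collagenase MMP13, which had 7.94, 7.80 and 6.97 at day 27, against 9.39, 9.05 and 9.63 at day 21. It was not called (-1.79 ± 0.30, adjusted p = 0.981, limma), although the days did not overlap. The highest difference, that of MIR1302-1 at 1.96 ± 0.78, came mainly from the day 27 array of number 3 at 7.17, against 2.99, 2.60 and 2.58 at day 21. MIR664 was higher in each number (6.13, 5.76 and 6.21 at day 27, against 3.80, 4.62 and 4.28 at day 21), also without passing the threshold.

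The other results are given by gene lists, of which 40 cover functions and 12 cover cell types. Of 864 measured genes in the function lists, 86 were called, beside 3.00% of all named genes, and nothing particular to the lists is read from that share, since they were drawn up with earlier results of these data known. Of these 86 calls, 55 held without number 1, 45 without number 2, 13 without number 3 and 63 with number 3 represented by day 21. The 23 calls lost with day 21 in place of both days for number 3 were those of MIA, FMOD, MYLK, ADAMTS5, TFPI2, NR4A2, ANGPTL4, LTBP4, BMPR1B, SFRP5, RSPO3, APCDD1, ETV5, CCL20, CXCL1, DGAT2, ATF6, SESN2, PCK2, CDKN1A, VEGFC, NRP2 and SEMA3C (adjusted p = 0.0514 to 0.0999, limma). Where a list is given with counts at an unadjusted p under 0.05, the same count over all 25923 probe sets was 4828, with 2270 higher and 2558 lower. In the lists, rose and fell mean called higher and called lower, beside 1.42% and 1.58% of all named genes. Positive and negative differences were not counted over all named genes, whose median difference was 0.017. Nothing particular to a list is read from its counts by direction or sign. With the spread pooled over the 18 unstimulated arrays, 77 of the 86 calls held. Those lost were ADAMTS5, TFPI2, RSPO3, CCL20, CXCL1, ICAM1, S100A8, SLC7A11 and VEGFC.

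Among cartilage collagens and large matrix proteins, 5 of 21 measured members rose and 2 fell, with a median difference of 0.39, against 0.017 over all named genes. Besides CNMD, CYTL1 and CILP, COL9A3, a chain of type IX collagen, rose by 0.84 ± 0.14 and MIA, a small secreted protein of cartilage, by 0.92 ± 0.16. COMP, a protein that links collagen fibrils, had 8.80 to 10.29 (median 9.86) in long culture, against 11.53, 12.15 and 10.92 at day 0. It fell without overlap (-1.93 ± 0.20, adjusted p = 0.0137, limma, and 0.0559 without the replicate block). HAPLN1, the link protein that holds aggrecan on hyaluronan, had 11.48 to 11.87 (median 11.69) in long culture, against 12.63, 12.78 and 12.81 at day 0 (-1.06 ± 0.14, adjusted p = 0.0269, limma). The main structural genes were not called. ACAN (aggrecan) had 12.43 to 12.62 (median 12.56) in long culture, against 12.84, 12.50 and 12.54 at day 0, a difference of -0.085 ± 0.15. COL2A1 (type II collagen) had 6.26 to 8.56 (median 7.29) in long culture, against 8.05, 7.78 and 7.30 at day 0, with the day 0 values inside the long-culture range. Of the 7 calls, CNMD and CYTL1 held without number 3, and the other 5 had adjusted p of 0.0545 to 0.183 in limma.

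In the small leucine-rich proteoglycans, 1 of 13 members rose and 0 fell (median difference 0.14). FMOD (fibromodulin, which binds collagen fibrils) had 11.62 to 11.95 (median 11.87) in long culture, against 10.63, 10.65 and 11.06 at day 0 (1.05 ± 0.16, adjusted p = 0.0357, limma), a call lost with each number left out in turn and with number 3 represented by day 21. EPYC had a difference of 1.24 ± 0.22 and ASPN of -2.05 ± 0.41, neither called. In the fibrous matrix list 0 of 30 members rose and 1 fell (median -0.072). COL6A3, a chain of the type VI collagen that surrounds each chondrocyte, had 7.89 to 8.83 (median 8.45) in long culture, against 11.17, 11.34 and 10.95 at day 0. The groups lay more than 2 log2 units apart, and the call (-2.74 ± 0.19, adjusted p = 0.00606, limma) held with each number left out in turn. The partner chains COL6A1 and COL6A2 had differences of -0.76 ± 0.14 and -0.76 ± 0.16 (adjusted p = 0.0521 and 0.0737). COL1A1, the collagen of dedifferentiated chondrocytes and fibroblasts, had 4.65 to 5.13 (median 4.79) in long culture, against 4.76, 4.85 and 4.62 at day 0, and was not called. Of the contractile cytoskeleton list 2 of 23 members rose, the intermediate filament VIM by 1.09 ± 0.14 and the myosin kinase MYLK by 1.07 ± 0.18, both lost without number 3 (adjusted p = 0.0798 to 0.122, limma). ACTA2, the smooth muscle actin, had a difference of 0.37 ± 0.16 that was not called.

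Genes that process collagen were called in 1 direction. Of 24 members of collagen processing and cross-linking, 0 rose and 5 fell (median difference -0.15). Of all named genes, 1.42% were called higher and 1.58% lower. Besides LOXL3, its relative LOXL4 had 5.91 to 6.71 (median 6.35) in long culture, against 8.13, 8.06 and 8.54 at day 0 (-1.88 ± 0.18, adjusted p = 0.0123, limma). P4HA3, a prolyl hydroxylase, differed by -1.55 ± 0.19, PLOD3, a lysyl hydroxylase, by -1.21 ± 0.15, and BMP1, the procollagen C-proteinase, by -0.95 ± 0.15. LOXL3 held without number 3, and the other 4 had adjusted p of 0.0545 to 0.131.

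Among matrix-degrading proteases, 1 of 32 rose and 2 fell (median difference 0.034). The lysosomal protease CTSS had 8.61 to 9.67 (median 8.99) in long culture, against 8.06, 7.70 and 7.94 at day 0 (1.14 ± 0.14, adjusted p = 0.0207, limma, and 0.1 without number 3). ADAMTS5 had 5.77 to 8.35 (median 7.21) in long culture, against 9.52, 10.18 and 7.98 at day 0, with an overlap through number 3, and its call was lost with that number represented by day 21 (adjusted p = 0.0961, limma). The call was also lost without the replicate block and with the spread of the 18 unstimulated arrays. The collagenase MMP1 and the stromelysin MMP3 were not called, with differences of -0.40 ± 0.15 and -0.79 ± 0.21. MMP13 spread widely in both groups, with 6.97 to 9.63 (median 8.50) in long culture, against 9.76, 5.15 and 6.76 at day 0. Of 11 protease inhibitors, 0 rose and 3 fell: SERPINE2 by -1.48 ± 0.14, TIMP1, the tissue inhibitor of metalloproteinases, by -1.05 ± 0.16 and TFPI2 by -0.78 ± 0.14. SERPINE2 had 11.48 to 11.64 (median 11.55) in long culture, a narrow range, against 12.92, 13.00 and 13.16 at day 0. All 3 were lost without number 3 (adjusted p = 0.0616 to 0.184, limma). In glycosaminoglycan synthesis and hyaluronan, 0 of 26 rose and 1 fell, the sulfotransferase CHST15 (-1.08 ± 0.14, adjusted p = 0.0273, limma, and 0.128 without number 3).

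Receptors for the matrix fell where they were called. Of 21 members of the integrin and adhesion list, 0 rose and 4 fell, beside 1.42% higher and 1.58% lower of all named genes. The list's median was 0.045. ITGA6, the laminin receptor chain, had 6.48 to 7.51 (median 7.16) in long culture, against 9.86, 9.33 and 9.49 at day 0 (-2.44 ± 0.15, adjusted p = 0.00403, limma). ITGA3 had 5.63 to 6.68 (median 6.34) in long culture, against 8.46, 7.81 and 8.44 at day 0 (-2.01 ± 0.19, adjusted p = 0.0118, limma). ITGB1, a beta chain that both can pair with, differed by -1.03 ± 0.15 and ITGAV by -1.06 ± 0.15. ITGA6 held without number 3, and the other 3 had adjusted p of 0.0503 to 0.148 without it. Of 24 angiogenic regulators, 2 rose, CNMD and the lymphatic growth factor VEGFC (1.38 ± 0.23), and 3 fell, among them the semaphorin SEMA3C (-1.16 ± 0.19) and its coreceptor NRP2 (-1.05 ± 0.17). All but CNMD were lost with each number left out in turn and with number 3 represented by day 21. VEGFA, the main vessel growth factor, had 10.30 to 11.65 (median 10.84) in long culture, against 11.20, 10.24 and 11.01 at day 0, and was not called.

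**Figure D4:**
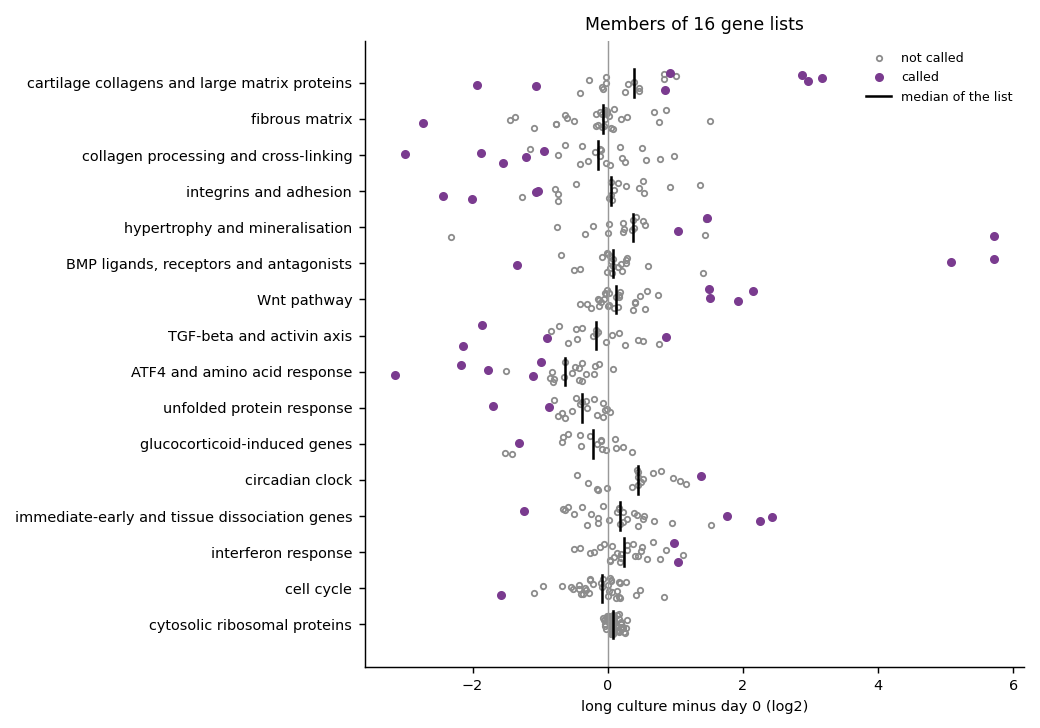
Difference between long culture and day 0 (horizontal axis, log2) of each measured member of 16 gene lists, called members filled, with the median of each list as a black line. Members of the ATF4 and amino acid response list lie almost wholly left of 0, those of the circadian clock list mostly right of it, and ribosomal proteins close to 0.

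Of 16 chondrocyte transcription factors, 1 rose and 0 fell (median difference 0.16). NFATC2, a calcium-regulated factor known to protect articular cartilage in the mouse, had 8.20 to 9.33 (median 8.53) in long culture, against 7.49, 6.90 and 6.52 at day 0 (1.71 ± 0.20, adjusted p = 0.02, limma, and 0.0691 without number 3). SOX9, the master regulator of chondrocytes, had 6.47 to 7.35 (median 6.96) in long culture, against 6.87, 6.55 and 6.61 at day 0, and was not called. In hypertrophy and mineralisation, 3 of 20 rose and 0 fell (median 0.37). Besides ALPL, the homeobox factor DLX5 had 8.03 to 8.93 (median 8.63) in long culture, against 7.35, 6.89 and 7.06 at day 0 (1.47 ± 0.14, adjusted p = 0.0122, limma). MEF2C, a factor that drives hypertrophy, rose by 1.05 ± 0.17 (adjusted p = 0.04, limma). Without number 3, DLX5 and MEF2C were lost (adjusted p = 0.0545 to 0.12). The bone matrix gene IBSP had a difference of 1.43 ± 0.42 and the phosphatase PHOSPHO1 of 1.45 ± 0.29, neither called, and COL10A1 ran the other way, as given above.

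Called rises in growth factor pathways included 4 secreted antagonists (CHRDL2, GREM1, FRZB and SFRP5). Of 24 BMP ligands, receptors and antagonists, 2 rose, CHRDL2 and GREM1, and 1 fell, the receptor BMPR1B (-1.35 ± 0.23, adjusted p = 0.0475, limma, lost with each number left out in turn). The list's median was 0.073. Of 31 members of the Wnt pathway, 4 rose and 0 fell (median 0.12). FRZB, a secreted Wnt antagonist of articular cartilage, had 12.58 to 12.84 (median 12.67) in long culture, against 10.63, 11.18 and 10.50 at day 0. The 6 long-culture values lay close together, and the difference was 1.92 ± 0.19 (adjusted p = 0.0135, limma). SFRP5, also a Wnt antagonist, differed by 1.51 ± 0.25 with 1 long-culture array at 5.76, below the day 0 values of 5.93, 5.82 and 5.79. APCDD1, an inhibitor at the Wnt receptor, differed by 1.5 ± 0.26 and RSPO3, an amplifier of Wnt signals, by 2.15 ± 0.27. Without number 3 all 4 calls were lost (adjusted p = 0.061 to 0.207, limma), and SFRP5, APCDD1 and RSPO3 were also lost with number 3 represented by day 21.

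Of 21 members of the TGF-beta and activin axis, 1 rose and 3 fell (median difference -0.17). TGFB1, the ligand, had 6.12 to 7.25 (median 6.78) in long culture, against 9.71, 8.14 and 9.03 at day 0 (-2.15 ± 0.25, adjusted p = 0.0189, limma). ENG (endoglin, a coreceptor) had 6.79 to 8.32 (median 7.95) in long culture, against 9.85, 9.47 and 9.36 at day 0 (-1.86 ± 0.21, adjusted p = 0.0167, limma). The latent binding proteins went opposite ways, LTBP3 by -0.89 ± 0.14 and LTBP4 by 0.86 ± 0.14. All 4 were lost without number 3 (adjusted p = 0.0545 to 0.152, limma). Of 17 members of the insulin-like growth factor (IGF) axis, 0 rose and 2 fell. IGFBP5, an IGF-binding protein, had 3.80 to 4.30 (median 4.16) in long culture, against 7.09, 6.27 and 5.19 at day 0, and STC2, an inhibitor of the protease that frees IGF, had 6.47 to 7.30 (median 6.68), against 9.31, 7.92 and 9.21 at day 0. Their differences were -2.07 ± 0.30 and -2.05 ± 0.23 (adjusted p = 0.0325 and 0.0175, limma, and 0.0511 and 0.09 without number 3). Of 22 hedgehog and FGF genes, 1 rose, the hedgehog coreceptor BOC (1.42 ± 0.15), and 2 fell, the FGF feedback genes SPRY2 (-1.30 ± 0.16) and ETV5 (-1.65 ± 0.27). These 3 had adjusted p of 0.0767 to 0.09 without number 3.

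Since all explants were digested before lysis, genes that respond to dissociation were followed as a list. Of 30 immediate-early and tissue dissociation genes, 3 rose and 1 fell (median difference 0.17). NR4A1, an orphan nuclear receptor, had 11.07 to 11.85 (median 11.43) in long culture, against 9.40, 8.90 and 8.89 at day 0 (2.44 ± 0.20, adjusted p = 0.00967, limma). EGR3 had 8.09 to 9.80 (median 9.00) in long culture, against 7.41, 5.98 and 6.90 at day 0 (2.26 ± 0.21, adjusted p = 0.0117, limma). The sister receptor NR4A2 differed by 1.76 ± 0.30 and the phosphatase DUSP5 by -1.24 ± 0.15. All 4 were lost without number 3 (adjusted p = 0.0545 to 0.178). The classic members FOS and EGR1 overlapped between groups, FOS with 10.30 to 11.14 (median 10.79) in long culture, against 10.00, 10.60 and 10.36 at day 0. EGR1 had 12.03 to 12.28 (median 12.19) in long culture, against 11.80, 12.07 and 11.96 at day 0. None of 14 measured heat shock genes was called (median 0.11, 5 above and 1 below day 0 at an unadjusted p under 0.05).

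Of 18 glucocorticoid-induced genes, 1 was called lower and 0 higher, and 14 of 18 had a negative difference (median -0.21). The call was ANGPTL4, a lipase inhibitor (-1.31 ± 0.22, adjusted p = 0.0416, limma), and it was lost with each number left out in turn. FKBP5, a chaperone of the steroid receptor, had 6.79 to 7.34 (median 7.24) in long culture, against 7.53, 10.24 and 7.98 at day 0. TSC22D3, a mediator of glucocorticoid action, had 6.93 to 7.60 (median 7.31) in long culture, against 8.27, 9.87 and 8.33 at day 0. In both genes number 2 was the highest at day 0, and the differences of -1.41 ± 0.47 and -1.52 ± 0.34 were not called. In the circadian clock list, 1 of 18 rose and 0 fell, and 13 had a positive difference (median 0.45). HLF, a clock output factor, had 8.36 to 8.50 (median 8.45) in long culture, within a narrow range, against 7.17, 6.69 and 7.31 at day 0 (1.38 ± 0.17, adjusted p = 0.0216, limma, and 0.0834 without number 3). PER3 had a difference of 1.15 ± 0.27, DBP of 0.96 ± 0.21 and NR1D1 of 1.07 ± 0.34, none called.

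Genes of the ATF4 and amino acid response list were lower in long culture wherever they were called. Of 23 members of the ATF4 and amino acid response, 0 rose and 5 fell, 22 had a negative difference, and the median was -0.63. Over all named genes the median was 0.017 and 1.58% were called lower, and the share of negative differences was not counted. PSAT1 led the list. SLC7A11, the cystine importer, had 5.81 to 8.37 (median 6.96) in long culture, against 8.87, 8.57 and 8.76 at day 0 (-1.78 ± 0.17, adjusted p = 0.0117, limma). Its long-culture arrays spread widely, and the call was lost with the spread of the 18 unstimulated arrays. VLDLR, a lipoprotein receptor, had 3.33 to 6.59 (median 5.43) in long culture, against 8.34, 5.54 and 7.91 at day 0, with number 2 at day 0 inside the long-culture range. The stress sensor SESN2 differed by -1.11 ± 0.18 and PCK2, a mitochondrial enzyme of gluconeogenesis, by -0.99 ± 0.16. ATF4 itself had a difference of -0.81 ± 0.16 and ASNS, asparagine synthetase, of -0.86 ± 0.17 (adjusted p = 0.0661 and 0.0656, limma). Without number 3, PSAT1 held and the other 4 calls had adjusted p of 0.0545 to 0.19. Of 19 genes of the unfolded protein response, 0 rose and 2 fell, with 18 negative differences and a median of -0.38. The stress sensors ERN1 and ATF6 differed by -1.70 ± 0.23 and -0.87 ± 0.14, both lost without number 3 (adjusted p = 0.0849 to 0.188), and the chaperone HSPA5 had -0.63 ± 0.17, not called.

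In the oxidative stress, metallothionein and iron list, 0 of 16 rose and 2 fell, SLC7A11 and the transferrin receptor TFRC, which had 5.84 to 7.0 (median 6.27) in long culture, against 8.15, 7.59 and 7.96 at day 0 (-1.62 ± 0.15, adjusted p = 0.0118, limma, and 0.0587 without number 3). Of 16 p53 and senescence genes, 0 rose and 1 fell, the cell cycle inhibitor CDKN1A (-0.83 ± 0.14), whose groups overlapped and whose call was lost with each number left out in turn. In the list of osmotic response and transport, 2 of 17 rose and 3 fell (median -0.064). SLC14A1, a urea transporter abundant in articular cartilage, had 10.91 to 11.86 (median 11.43) in long culture, against 8.33, 8.49 and 8.88 at day 0. The groups did not overlap, and the difference of 2.86 ± 0.14 (adjusted p = 0.00229, limma) held with each number left out in turn. AQP3, a water and glycerol channel, had 6.51 to 7.10 (median 6.83) in long culture, against 8.76, 8.46 and 9.69 at day 0 (-2.16 ± 0.21). TRPV4, a channel that senses load and osmolarity, differed by -1.37 ± 0.18, the sodium pump chain ATP1B1 by -1.0 ± 0.14 and the kinase WNK4 by 1.03 ± 0.15. The calls other than SLC14A1 had adjusted p of 0.0505 to 0.127 in limma without number 3.

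Beside the 3.00% of all named genes called, the lists of hypoxia, glycolysis and oxidative phosphorylation held 1 called gene, too few members to set apart from that share. Of 24 hypoxia genes 0 rose and 1 fell, which was STC2 (median 0.029). None of 17 glycolysis genes was called in limma (1 above and 4 below day 0 at an unadjusted p under 0.05). The glucose transporter SLC2A1 had 9.21 to 10.36 (median 9.61) in long culture, against 9.84, 9.44 and 9.35 at day 0, with overlap. Of 28 subunits of oxidative phosphorylation none was called (1 above and 5 below day 0 at an unadjusted p under 0.05, median -0.22). Of 49 cytosolic ribosomal proteins none was called and none had an unadjusted p under 0.05 (median 0.071). In the cell cycle list, 0 of 36 rose and 1 fell: CCND1 (cyclin D1) had 6.62 to 7.07 (median 6.74) in long culture, against 8.0, 8.56 and 8.60 at day 0 (-1.58 ± 0.16, adjusted p = 0.0135, limma, and 0.0736 without number 3).

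Inflammatory genes were called in both directions in unstimulated culture. Of 11 chemokines, CXCL1 was called higher (0.85 ± 0.14) and CCL20 lower (-1.03 ± 0.17), both with overlapping groups, and both calls were lost with each number left out in turn. In the cytokine and NF-kB list, 1 of 29 rose and 1 fell. TNFRSF11B (osteoprotegerin, the decoy receptor that restrains osteoclasts) had 10.53 to 11.70 (median 11.22) in long culture, against 13.08, 12.86 and 13.15 at day 0 (-1.80 ± 0.14, adjusted p = 0.00902, limma). The adhesion molecule ICAM1 differed by 1.11 ± 0.13. Without number 3 their adjusted p were 0.0511 and 0.0992. IL6 had 4.18 to 6.12 (median 4.83) in long culture, against 5.26, 6.12 and 4.43 at day 0, and was not called. Of 22 genes of prostaglandin and nitric oxide synthesis, none was called in limma (3 above and 5 below day 0 at an unadjusted p under 0.05). In the interferon response, 2 of 28 rose and 0 fell (median 0.24), the ubiquitin-like ISG15 by 1.04 ± 0.14 and the immunoproteasome chain PSMB8 by 0.98 ± 0.14, both lost with each number left out in turn.

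Of 24 complement and innate defence genes, 1 rose and 2 fell. LCN2 (lipocalin 2, an iron-binding defence protein) had 9.35 to 10.75 (median 10.28) in long culture, against 3 close values of 12.56, 12.63 and 12.71 at day 0. The call (-2.48 ± 0.16, adjusted p = 0.00508, limma) held with each number left out in turn. CD55, which shields cells from complement, had 8.31 to 9.59 (median 9.02) in long culture, against 10.84, 10.20 and 11.08 at day 0 (-1.75 ± 0.14, adjusted p = 0.00964, limma, and 0.0545 without number 3). S100A8 had 4.57 to 7.53 (median 7.05) in long culture, against 4.85, 4.44 and 5.91 at day 0, so that the lowest long-culture values overlapped day 0. It was the call that rose (1.48 ± 0.14, adjusted p = 0.0118, limma), and was lost without number 3 (adjusted p = 0.066), without the replicate block (0.191) and with the spread of the 18 unstimulated arrays (0.0579). Its partner S100A9 had a difference of -0.37 ± 0.26. In the aryl hydrocarbon receptor axis, 2 of 9 rose. CYP1A1, the classic target gene, had 6.04 to 7.45 (median 7.17) in long culture, against 3.74, 4.8 and 4.91 at day 0 (2.44 ± 0.38, adjusted p = 0.0358, limma). It stood at 9.23, 6.92 and 7.76 already at day 3. TIPARP, a repressor of the same receptor, differed by 1.16 ± 0.15, and without number 3 the adjusted p were 0.153 and 0.113.

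Of 13 apolipoproteins and genes of cholesterol export, 2 rose and 0 fell (median difference -0.035). Besides APOA1, APOD, a lipid carrier of resting cells, had 8.06 to 9.59 (median 8.69) in long culture, against 7.37, 6.81 and 6.95 at day 0 (1.75 ± 0.18, adjusted p = 0.0135, limma, and 0.0545 without number 3). APOE had a difference of 1.07 ± 0.20 (adjusted p = 0.0544). Of 17 cholesterol synthesis genes 1 fell and 0 rose, and 14 had a negative difference (median -0.26). HMGCS1, an early enzyme of the pathway, differed by -0.96 ± 0.14 with overlapping groups and was lost with each number left out in turn. Of 26 fatty acid genes 0 rose and 2 fell, ANGPTL4 and DGAT2, an enzyme of triglyceride storage (-1.21 ± 0.21), which was lost without number 1 or number 3.

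The tissue label was checked against cell type markers. The mean level of 11 chondrocyte markers was 8.06 to 8.30 in long culture, against 8.0, 7.63 and 7.77 at day 0. Of these markers 2 rose (CNMD and COL9A3) and 1 fell (HAPLN1). The higher mean leaned on CNMD, at 3.17, since the median difference of the list was 0.23. Of the 11 differences, 6 were positive and 5 negative. The mean over 12 macrophage markers was 4.54 to 4.86 in long culture, against 4.78, 4.51 and 4.69 at day 0, and that over 11 lymphocyte markers was 4.24 to 4.58 in long culture, against 4.25, 4.28 and 4.30 at day 0. The red cell marker HBB had means of 3.51 in long culture and 3.56 at day 0, and the endothelial marker CDH5 had 4.20 and 4.21. Of the other endothelial markers, VWF had 6.22 to 6.82 (median 6.55) in long culture, against 5.69, 5.41 and 6.05 at day 0, without overlap and without a call (0.83 ± 0.16, adjusted p = 0.063, limma), and ERG had a difference of 0.47 ± 0.19. Of 8 neutrophil markers S100A8 was called, and the median of the list was -0.092. None of the measured macrophage, lymphocyte, endothelial, red cell, osteoclast, adipocyte or skeletal muscle markers was called in limma, and 5 lay above and 1 below day 0 when p under 0.05 was taken without adjustment. Among markers of neighbouring tissues, PDGFRA of the synovial list fell (-1.69 ± 0.23), CSPG4 of the pericyte list fell (-1.26 ± 0.22, adjusted p = 0.04995, limma), and DLX5 of the osteoblast list rose. The synovial list had a mean level of 5.76 to 6.53 in long culture, against 6.12, 5.79 and 5.86 at day 0, with 0 of 12 members higher and 1 lower. PRG4, the lubricin gene of the cartilage surface, had no single-symbol probe set. The calls of PDGFRA, CSPG4 and DLX5 were lost without number 3, and the part of other cell types in the results was not tested.

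Stimulated explants of the same days give the level that long culture reached when IL-1β was present. This comparison shares the long-culture arrays, so that a gene high in them is drawn towards a negative difference here. In all, 4507 of 25923 probe sets were called between stimulated and unstimulated explants of days 21 and 27 (17.4%). CHRDL2 had 4.87 to 5.34 (median 5.11) in the 6 stimulated arrays, against 10.37 to 12.89 (median 12.55) in unstimulated ones, and all stimulated values lay below the day 0 values given above. ALPL had 3.98 to 4.52 (median 4.5) in stimulated arrays, which overlapped its day 0 values. GREM1 had 7.01 to 9.88 (median 8.31) in stimulated arrays, also in an overlap with day 0. Of the 14 genes that rose most in unstimulated culture, 8 lay below all day 0 arrays in every stimulated array, 6 overlapped day 0, and 0 lay above it.

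Most of the genes that fell most lay below day 0 with IL-1β too, which need not place them at the level of unstimulated long culture. HMGA1 had 7.43 to 8.88 (median 8.16) in stimulated arrays, between unstimulated long culture and day 0. LOXL3 had 8.36 to 8.88 (median 8.82) and HTRA3 6.63 to 7.91 (median 7.11) in stimulated arrays, likewise below day 0. TIMD4 had 6.16 to 7.75 (median 6.97) in stimulated arrays, and its difference between stimulated and unstimulated explants was -0.097 ± 0.52 (adjusted p = 0.93, limma). MIR29A was an exception, with 4.52 to 8.92 (median 7.01) in stimulated arrays, a range that covers its day 0 values. Of these 14 genes 11 lay below all day 0 arrays in every stimulated array, 3 overlapped day 0 (MIR29A, MIR29B and MEDAG), and 0 lay above it. The 14 genes were chosen for day 0 values above those of long culture, a choice that favours day 0 standing above other arrays too. For neither set of 14 genes was the same count made over all genes. CYP1A1 was higher in long culture without IL-1β and higher again with it, at 12.24 to 13.04 (median 12.49) in stimulated arrays.

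**Figure D5:**
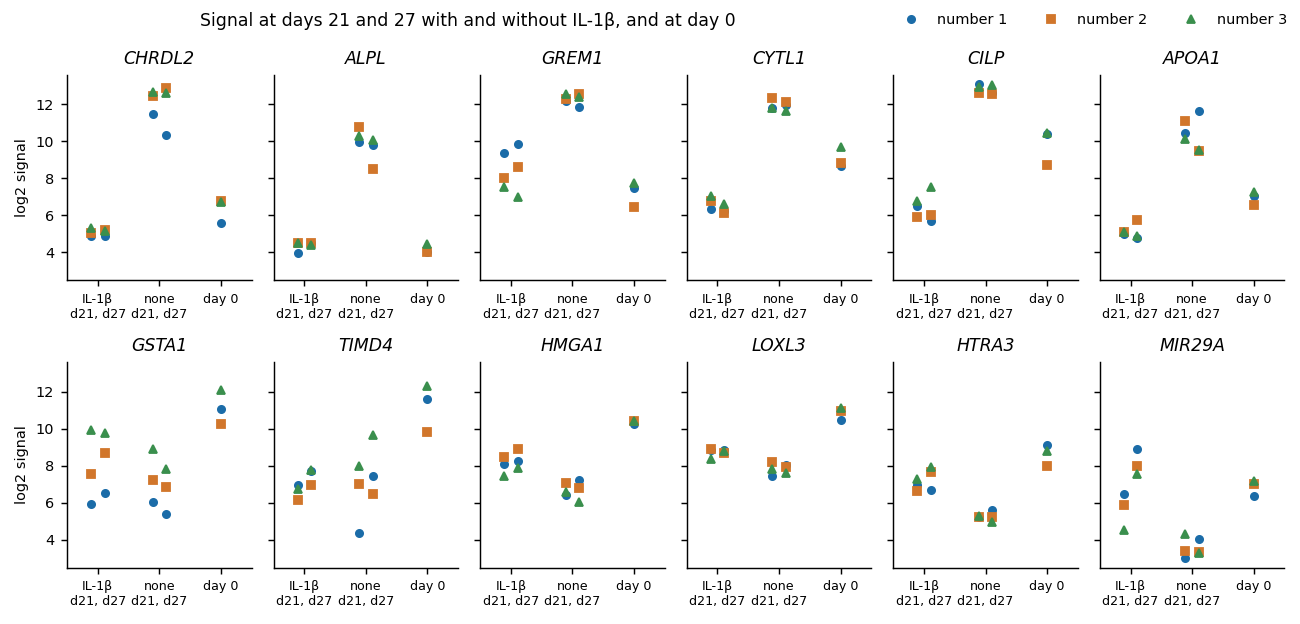
Log2 signal (vertical axis) of 6 genes that rose and 6 that fell in stimulated explants of days 21 and 27, unstimulated explants of the same days and explants of day 0, with 1 point for each array and a symbol for each replicate number. In the upper panels the unstimulated points stand alone at the top, and in the lower panels the day 0 points do, except for MIR29A.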

How the data were processed

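Gene expression was measured in equine cartilage explants with an Affymetrix array (33 arrays). The authors deposited a table of log2 values for 25923 probe sets. RMA (robust multi-array averaging), Expression Console of Affymetrix and limma are named in the submitters' processing notes, without versions or roles. The base was inferred from the range, 1.5 to 13.9. RMA compresses changes near the lowest signals, and its quantile step removes shifts shared by most genes. No signal over background was used here, and precision is limited by how few arrays each group holds. Of the probe sets, 16789 had 1 symbol in the platform annotation, which can be old, 343 had several and 8791 had none listed. A symbol was represented by its probe set with the highest mean (16661 genes).

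Comparisons used limma 3.58.1 under R 4.3.3 (lmFit, eBayes, two-sided, Benjamini-Hochberg over all probe sets, threshold 0.05) on 1 value per replicate number and group, with the number as a block, which left 2 residual degrees of freedom. The script was tested on simulated data. The numbers pair the samples through the experiment number in the labels. Deviations of long culture and day 0 from their group means correlated at 0.202, 0.192 and 0.235 within numbers and at no more than -0.0035 between numbers. Such deviations cancel over the 3 numbers, so that positive values within numbers go with negative ones between them. Deviations of day 21 and day 27 from the means of their days correlated at 0.296, 0.0227 and 0.151 within numbers 1, 2 and 3. The labels do not say whether a number is a separate horse in words, and p-values measure the spread between these samples. Figures were drawn with matplotlib 3.10.9.

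The arrays described and the gene lists were chosen with earlier results of these data known. The genes named were 32 fixed ones (2 of them, PRG4 and TXNIP, without a probe set), the 14 highest and 14 lowest called differences with 1 sign in all 6 long-culture arrays, the 5 highest and 5 lowest called in the other comparisons (3 each way where none was called), up to 4 members of each list by smallest p, and further members of a list being described. Of the list genes, 115 had no single-symbol probe set and were not analysed here. Alternatives were no block, brighter probe sets alone, quantile normalisation once more, eBayes with trend, pooled spreads, each number or day left out, number 3 represented by day 21, and the mean of a symbol's probe sets. Scanner files, scan dates and coordinates were not used here.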

Additional observations from a re-analysis of the deposited data

Results flagged for a closer look

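Over the 6 long-culture arrays, 57 genes (the fixed genes and those with the largest changes) were searched for an array far from the others. In 1 gene, FKBP5, the day 21 array of number 3 stood at 6.79, with the other 5 arrays between 7.14 and 7.34, so that its gap to them made up 0.644 of the whole range, above Dixon's critical value for 6 arrays. Chance alone marks about 1 in 20 groups. FKBP5 was not called in long culture against day 0.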

How the results depend on the processing

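The count of probe sets called in long culture minus day 0 (588) moved the most with the replicate numbers and with how the spread was estimated. It was 57 to 490 with each number left out in turn, 1149 over probe sets above the median signal, 1004 with trend and robust estimation, 1600 with the spread of the 18 unstimulated arrays, 2461 with that of all 33 arrays, 340 with day 21 only and 159 with day 27 only. Without the replicate block it was 624, with 447 of the 588 shared. Of the calls, 48.1% were higher in long culture, against 39.6% with the 18-array spread and 38.8% with the 33-array spread. For long culture minus day 3 (24 calls), the count was 12 without the replicate block, 114 over brighter probe sets, 123 with trend, 351 and 649 with the spreads of 18 and 33 arrays, and 6 to 118 with each number left out. For day 27 minus day 21 (0 calls, 1084 at an unadjusted p under 0.05) it was 1 with the 33-array spread and 0 in the other alternatives. For stimulated minus unstimulated explants of days 21 and 27 (4507), it was 1736 to 4090 with each number left out, 2761 with day 21 only and 1911 with day 27 only. Among 245 named genes, 103 were called, and 0 turned direction in any alternative where they were called. Of the 103 calls, 80 held without the block, 93 with quantile normalisation once more, 82 with number 3 represented by day 21, and 24 without number 3; a lost call with 1 residual degree of freedom is no sign of a smaller change, and the cause was not tested. ITM2A and TIMD4 were not called without the block.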

Other observations

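The genes in these paragraphs were chosen after their values were seen, among the 500 named genes called in long culture against day 0. They are outside the lists described above, and of 43 so chosen, 6 held their call without number 3 and 34 with that number represented by day 21. Enzymes of methyl and xenobiotic metabolism were among the genes that rose. BHMT, which turns homocysteine into methionine, had 9.84 to 11.65 (median 11.20) in long culture, against 8.39, 8.89 and 7.29 at day 0 (2.74 ± 0.39, adjusted p = 0.0314, limma). GNMT, a methyltransferase of the same cycle, had 7.43 to 8.54 (median 7.99) in long culture, against 5.78, 6.35 and 5.50 at day 0 (2.05 ± 0.18, adjusted p = 0.0103, limma). In neither gene did the groups overlap. EPHX1, the microsomal epoxide hydrolase, had 11.01 to 11.64 (median 11.35) in long culture, against 8.79, 9.05 and 8.09 at day 0 (2.71 ± 0.22, adjusted p = 0.00964, limma). PRDX2, a peroxidase, differed by 1.73 ± 0.14 and GSTA4 by 0.97 ± 0.14, opposite in sign to GSTA1. Secreted proteins rose too: SCUBE1 had 10.30 to 11.14 (median 10.56) in long culture, against 8.03, 8.39 and 8.27 at day 0 (2.38 ± 0.16), VIT (vitrin, a matrix protein) differed by 1.78 ± 0.16 and GAS6, a ligand of the AXL receptor, by 1.90 ± 0.13. S100B, a calcium-binding protein of chondrocytes, differed by 1.88 ± 0.15. EPHX1, SCUBE1, VIT and GAS6 held in every alternative run, and without number 3 the adjusted p were 0.0545 for BHMT, 0.0545 for GNMT and 0.0511 for S100B.

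Genes of growth signalling and of the cell cortex were among those that fell. CDK6, a cyclin D kinase, had 4.21 to 5.10 (median 4.55) in long culture, against 5.92, 6.15 and 7.15 at day 0 (-1.82 ± 0.19, adjusted p = 0.0135, limma), beside the fall of cyclin D1 given above. EIF4EBP1, a brake on translation, differed by -1.67 ± 0.16 and the kinase RPS6KA3 by -1.59 ± 0.14. PLAUR, the urokinase receptor, had 9.96 to 10.63 (median 10.36) in long culture, against 11.83, 11.66 and 11.92 at day 0 (-1.50 ± 0.14, adjusted p = 0.0117, limma), and TNFRSF12A, the receptor for TWEAK, had 7.36 to 9.19 (median 7.99), against 9.84, 9.76 and 10.55 at day 0 (-1.94 ± 0.23). IL1RAP, the accessory chain of the IL-1 receptor, had 5.68 to 6.45 (median 5.95) in long culture, against 7.61, 7.41 and 7.54 at day 0 (-1.49 ± 0.15, adjusted p = 0.0135, limma). The groups did not overlap for PLAUR, TNFRSF12A or IL1RAP. The actin-binding proteins EZR and MSN differed by -1.08 ± 0.14 and -1.06 ± 0.18, and the annexin ANXA3 by -2.05 ± 0.17. DDIT4L, an inhibitor of mTOR signalling, was higher in long culture (2.03 ± 0.19), and its call held in every alternative run. A further 2 microRNA genes that share a transcript in other mammals, MIR221 and MIR222, differed by -0.98 ± 0.14 and -1.78 ± 0.21, with an overlap between the groups of MIR221. The call of MIR221 was lost in 9 of the 12 alternatives, among them no block (adjusted p = 0.127, limma), number 3 represented by day 21 (0.0649) and each number left out. That of MIR222 was lost without the block (0.0508), without number 3 (0.0938) and with day 27 only (0.13). MSN was lost with number 3 represented by day 21 (adjusted p = 0.0808, limma). Without number 3 the calls of CDK6, PLAUR, TNFRSF12A and IL1RAP were lost (adjusted p = 0.0545 to 0.0677, limma).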
